A study of Homo sapiens with 6 samples.

Results

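*MALAT1* and *NEAT1*, which are long noncoding RNAs kept in the nucleus, and 7 spliced noncoding RNAs that carry small nucleolar RNAs (snoRNAs) in their introns, *GAS5*, *ZFAS1*, *SNHG1*, *SNHG8*, *SNHG12*, *SNHG15* and *SNHG16*, were read from the count table by gene name. These were 9 of the 17222 gene names in the table, and all 9 were among the 14660 genes that passed the filter on low counts. By their labels the libraries came from H226, an established human cell line derived from a squamous cell carcinoma of the lung. The study's results text and figure legend also name H226 for this RNA-seq, whereas its methods paragraph names BJ, a fibroblast line. Cells had received either a control antisense oligonucleotide (ASO_CTRL, 3 libraries) or a single ASO against the long noncoding RNA *SWINGN* (ASO_LINC#3, 3 libraries), and RNA was taken 48 h later from both groups. The comparison asks which RNAs differ in level once *SWINGN* is targeted. Whether *SWINGN* was depleted was not analysed here, and 1 ASO cannot tell an effect of the target from one of the oligonucleotide. The study describes its experiments in general as biological triplicates, but the labels do not say that the libraries of a group came from separate cultures, so p-values measure the spread between these libraries, which may be technical.

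*MALAT1* lies in nuclear speckles, the bodies where splicing factors gather, and *NEAT1* is the RNA around which paraspeckles assemble. Both come from neighbouring genes, and *NEAT1* is made as a short polyadenylated form and a long form that share their start, which counts per gene do not separate. The other 7 RNAs are host transcripts: their introns are trimmed to snoRNAs that guide chemical modification of ribosomal RNA, while the spliced exons leave the nucleus and, in many hosts, are degraded through nonsense-mediated decay (NMD). Several hosts begin with a run of pyrimidines like that of ribosomal protein mRNAs, whose translation is tied to growth signals.

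Which end of an RNA the library method reads bears on *MALAT1*, because the cDNA was primed with oligo-dT and mature *MALAT1* ends without a poly(A) tail. Its 3′ end is cut ahead of a small tRNA-like RNA and held in a triple helix by an A-rich stretch encoded in the genome. That stretch is shown because it is the longest run of A in the transcript, of 13 bases, here in capitals within 133 bases of the reference (GRCh37, chr11:65273509-65273641, plus strand). How much of the cDNA was primed there was not tested.

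MALAT1 3′ region: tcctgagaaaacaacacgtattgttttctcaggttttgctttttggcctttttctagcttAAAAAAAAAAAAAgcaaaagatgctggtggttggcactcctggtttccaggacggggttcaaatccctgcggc

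The start sites of 4 hosts are shown next, *ZFAS1* as the host with the most reads and *SNHG8*, *SNHG12* and *SNHG16* as the 3 whose levels did not overlap between the groups. Each window holds 30 bases before the annotated RefSeq start and 30 from it onwards (GRCh38.p14), and the longest unbroken run of C and T is in capitals. The windows lie at chr20:49278612-49278671 on the plus strand for *ZFAS1*, chr4:118278732-118278791 on the plus strand for *SNHG8*, chr1:28581844-28581903 on the minus strand for *SNHG12* and chr17:76557734-76557793 on the plus strand for *SNHG16*.

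ZFAS1: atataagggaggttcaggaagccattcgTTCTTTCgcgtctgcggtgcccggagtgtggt
SNHG8: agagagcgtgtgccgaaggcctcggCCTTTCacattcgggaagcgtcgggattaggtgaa
SNHG12: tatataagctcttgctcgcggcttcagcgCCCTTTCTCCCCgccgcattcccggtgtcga
SNHG16: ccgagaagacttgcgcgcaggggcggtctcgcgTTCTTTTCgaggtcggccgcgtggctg

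*SNHG12* had the longest run of the 4, 12 bases, and 5.96% of all 35116 annotated start windows held a run at least as long. The run was 8 bases in *SNHG16* (23.8% of windows), 7 in *ZFAS1* (34% of windows) and 6 in *SNHG8* (49.6% of windows), beside a median of 5 over all windows. With the annotated start counted as 0, the runs began at −5 in *SNHG8*, −2 in *ZFAS1*, −1 in *SNHG12* and 3 in *SNHG16*, so those of *SNHG8*, *ZFAS1* and *SNHG12* cover the annotated start. In *GAS5* and *SNHG1*, not shown, the longest run was 5 bases from −25 (70.5% of windows) and 7 bases from −20 (34% of windows). Both ended before the annotated start. A pyrimidine run is a description of these letters and does not show where transcription began in H226 cells.

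The snoRNAs themselves are made from the introns. One each is shown for *SNHG12*, *SNHG16* and *GAS5*, as cut from the reference (GRCh37) inside an intron of the annotated transcript, at chr1:28905261-28905334 (minus strand), chr17:74557191-74557274 (plus strand) and chr1:173834760-173834824 (minus strand). Capitals mark the C box near the 5′ end and the D box near the 3′ end, the short motifs by which C/D snoRNAs are bound by their core proteins.

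SNORD99 in SNHG12: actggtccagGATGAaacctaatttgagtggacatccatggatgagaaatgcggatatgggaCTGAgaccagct
SNORD1B in SNHG16: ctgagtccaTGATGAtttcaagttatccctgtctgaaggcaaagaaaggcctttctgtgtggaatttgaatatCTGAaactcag
SNORD78 in GAS5: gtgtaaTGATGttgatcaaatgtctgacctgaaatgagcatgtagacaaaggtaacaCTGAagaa

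Mature snoRNAs lack a poly(A) tail, and of the 31 intronic snoRNAs listed *SNORD99* was the 1 that was tested. It stood at 1.56 ± 0.467 CPM (reads of a gene scaled to a common library size; SD, n = 3) in ASO_CTRL and 1.54 ± 0.146 CPM in ASO_LINC#3, with a log2 fold change of −0.08 and an adjusted p of 0.904 (edgeR's quasi-likelihood test with Benjamini-Hochberg adjustment). The values that follow are therefore reads counted for the host genes, and they do not measure the snoRNAs apart. In *SNHG1*, *SNHG8* and *SNHG15* the annotated exons together cover the whole gene (3976, 6614 and 3943 bases). Reads from stretches that are introns in other transcripts may thus be included.

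Libraries held between 3686828 and 10546786 reads on genes, the fewest in ASO_LINC#3 replicate 3, which also stood apart from the other 5 on the second principal component. Between 13.2% and 14.1% of reads were listed as not aligned in ASO_CTRL and between 15.8% and 16.4% in ASO_LINC#3. Of the markers checked against the label, *KRT5* of the squamous list stood between 94.4 and 117 CPM in ASO_CTRL and between 62.6 and 77.8 CPM in ASO_LINC#3. Only 2 of the 6 squamous names were matched in the table, and the other, *KRT6A*, did not pass the filter on low counts. Of 6 simple epithelial names 4 were matched, all keratins, while *EPCAM* and *CDH1* were not found in the table. The summed level of the 4 keratins lay between 11700 and 12600 CPM in ASO_CTRL and between 7100 and 12400 CPM in ASO_LINC#3. Mesothelial markers, all 4 matched, summed to between 634 and 834 CPM in ASO_CTRL and between 209 and 323 CPM in ASO_LINC#3. Most of that sum was *CALB2*, which fell from 601 to 154 CPM (log2 fold change −1.97, adjusted p = 0.000195, edgeR). *UPK3B* was also lower, at 49.4 and 26.4 CPM (adjusted p = 0.0104, edgeR). The groups overlapped for *WT1*, at 46.0 and 36.6 CPM, and for *MSLN*, at 29.1 and 31.1 CPM. Of the fibroblast markers 1 of 5 was matched, *COL3A1*, which fell from between 9.29 and 11.9 CPM to between 2.71 and 4.85 CPM (log2 fold change −1.58, adjusted p = 0.00261, edgeR). Of the leukocyte markers 1 of 4 was matched, at 1.48 to 2.10 CPM in ASO_CTRL and 0.735 to 2.17 CPM in ASO_LINC#3. In bulk RNA a change in the share of cells that make an RNA and a change in the RNA per cell cannot be told apart, and the part of these shifts in the results was not tested.

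None of the 9 RNAs passed the threshold used for all genes (adjusted p below 0.01 with a log2 fold change beyond 0.5, edgeR's quasi-likelihood test), which 7.54% of the genes tested passed, 4.91% on the higher side and 2.63% on the lower side. The level of *SNHG12* was higher and those of *SNHG8* and *SNHG16* were lower with ASO_LINC#3, all 3 with no overlap between the groups and with an adjusted p below 0.05 that did not hold in every fit with a library left out, and *GAS5* was above all control libraries in 2 of 3 ASO_LINC#3 libraries. *MALAT1*, *NEAT1*, *ZFAS1*, *SNHG1* and *SNHG15* overlapped between the groups. At an unadjusted p below 0.05 the count was 4 of 9, where 32.4% of all genes tested were below it, and 3 of 9 had an adjusted p below 0.05, where 18% of all genes tested did (16.8% with the bound on the fold as well). DESeq2 and limma-voom each called 1 of the 9, *SNHG12*, beside 8.86% and 8.27% of the genes they tested. The groups did not overlap for 3 of the 9, 1 higher and 2 lower, beside 36.1% of all genes tested (18.7% higher and 17.3% lower), so the share without overlap was near that of the whole table, and the other shares rest on 3 or 4 RNAs. The median log2 fold change was 0.07 over the 9 RNAs and −0.003 over all genes tested, and the median size of the change without its sign was 0.235 over the 9, 0.409 over the 7 hosts and 0.31 over all genes tested.

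**Figure D1:**
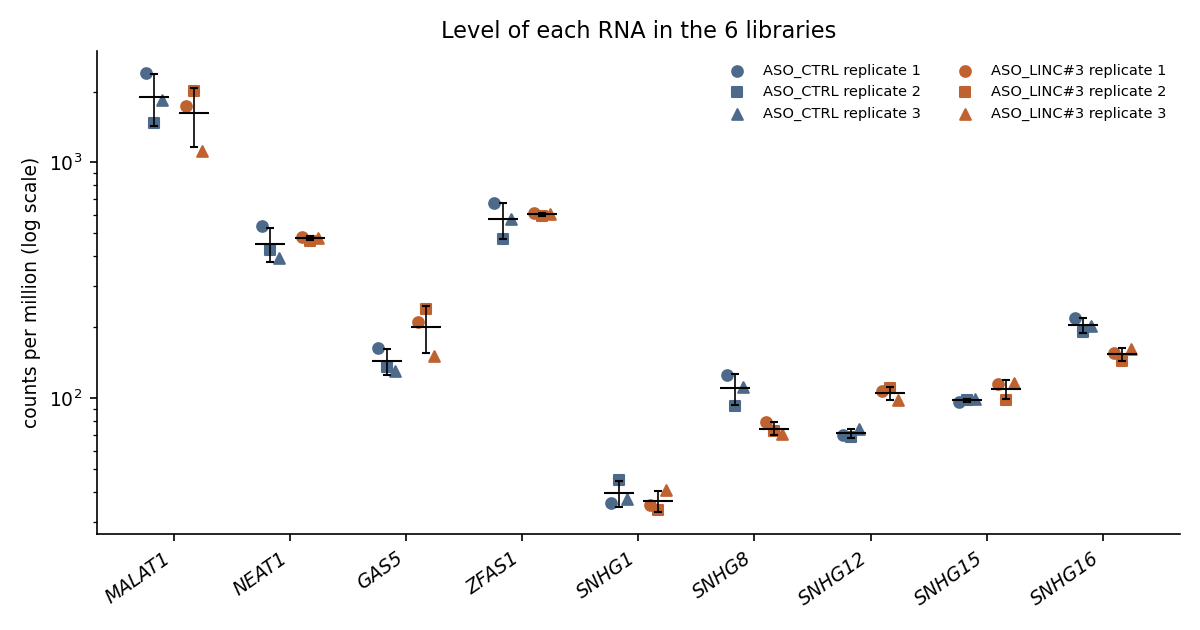
Level of each of the 9 RNAs in every library, in CPM on a log scale, with ASO_CTRL and ASO_LINC#3 side by side for each RNA. Points are libraries and bars give the mean and SD of 3 libraries. The groups are separate for *SNHG8*, *SNHG12* and *SNHG16* and overlap for the other 6, and *MALAT1* shows a wide spread in both groups.

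*MALAT1*, the nuclear speckle RNA, was the most abundant of the 9 in reads, at 2403, 1472 and 1835 CPM in ASO_CTRL replicates 1 to 3 and at 1738, 2001 and 1114 CPM in ASO_LINC#3 replicates 1 to 3. The groups overlapped, with ASO_LINC#3 replicate 3 below every other library and ASO_CTRL replicate 1 above every other. Means were 1903 ± 469 CPM and 1617 ± 456 CPM (SD, n = 3 each), and the fitted log2 fold change was −0.23 (SE 0.22, 95% interval −0.73 to 0.26, adjusted p = 0.502, edgeR's quasi-likelihood test). In both groups the highest library exceeded the lowest, by 1.63-fold in ASO_CTRL and by 1.80-fold in ASO_LINC#3. Changes in either direction within that interval are compatible with these libraries. The log2 fold change was −0.03 without ASO_LINC#3 replicate 3 and −0.41 without ASO_LINC#3 replicate 2. The gene is annotated at chr11:65265111-65275544 on the plus strand (GRCh37) as a single exon of 10434 bases in its canonical transcript.

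*NEAT1*, the paraspeckle RNA, stood at 536, 426 and 393 CPM in ASO_CTRL and at 485, 466 and 479 CPM in ASO_LINC#3. All 3 ASO_LINC#3 libraries lay inside the range of the control libraries. Its log2 fold change was 0.08 (SE 0.14, 95% interval −0.22 to 0.38, adjusted p = 0.740, edgeR), between means of 452 ± 74.8 CPM and 476 ± 9.47 CPM (SD, n = 3 each). It lies at chr11:65190245-65213011 on the plus strand, upstream of *MALAT1*. Without ASO_CTRL replicate 3 the log2 fold change was −0.02, on the other side of 0.

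Since both RNAs are nuclear and are read in the same library, the number of *NEAT1* reads for each *MALAT1* read does not depend on scaling. It was 0.223, 0.289 and 0.214 in ASO_CTRL and 0.279, 0.233 and 0.430 in ASO_LINC#3. ASO_LINC#3 replicate 3, in which *MALAT1* was lowest, had the highest ratio, and the other 5 libraries overlapped. On the log2 scale the difference was 0.34 in a two-sided exact permutation test (p = 0.3), and 3 libraries against 3 cannot go below a p of 0.1. The difference was 0.087 without ASO_LINC#3 replicate 3 and 0.53 without ASO_LINC#3 replicate 2.

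*SNHG12*, which hosts *SNORD99* shown above, stood at 70.2, 68.3 and 74.3 CPM in ASO_CTRL and at 107, 111 and 97.9 CPM in ASO_LINC#3. Every ASO_LINC#3 library lay above every control library. Means were 70.9 ± 3.07 CPM and 105 ± 6.61 CPM (SD, n = 3 each), a ratio of 1.48 (95% interval 1.23 to 1.79) or a log2 fold change of 0.57 (SE 0.12), with an adjusted p of 0.0107 by edgeR's quasi-likelihood test, which missed the threshold of 0.01. The adjusted p was 0.00279 with DESeq2, 0.00903 with limma-voom and 0.00976 with scaling by library size alone, and between 0.00108 and 0.0514 over the fits that each omit 1 library. It passed without ASO_LINC#3 replicate 3 (log2 fold change 0.62), as did 17.2% of all genes tested there. The adjusted p of *SNHG12* exceeded 0.05 without ASO_LINC#3 replicate 1 (0.0514) or replicate 2 (0.0505). Of all genes tested, 25.0% had a larger change in either direction.

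*SNHG8*, host of an H/ACA snoRNA of the class that guides pseudouridylation, stood at 126, 93.1 and 112 CPM in ASO_CTRL and at 79.7, 72.7 and 70.8 CPM in ASO_LINC#3. Here every ASO_LINC#3 library lay below every control library. The mean was 110.1 ± 16.3 CPM in ASO_CTRL and 74.4 ± 4.67 CPM in ASO_LINC#3 (SD, n = 3 each), a ratio of 0.676 (95% interval 0.542 to 0.843) or a log2 fold change of −0.56 (SE 0.14, adjusted p = 0.0219, edgeR). With GC content and length offsets the log2 fold change was −0.68 with an adjusted p of 0.00551, past the threshold, which 11.8% of all genes passed under these offsets. The adjusted p was 0.0507 with the replicate block and ran from 0.0113 to 0.1 over the fits that omit a library, below 0.05 without ASO_CTRL replicate 2 or ASO_LINC#3 replicate 3 and above it without any other library. A larger change was fitted for 25.3% of all genes tested.

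*SNHG16*, host of *SNORD1B*, stood at 219, 190.3 and 203 CPM in ASO_CTRL and at 155, 144 and 162 CPM in ASO_LINC#3, again with every ASO_LINC#3 library below every control library. Its means were 204 ± 14.1 CPM and 154 ± 9.31 CPM (SD, n = 3 each). The ratio was 0.753 (95% interval 0.625 to 0.908) and the log2 fold change −0.41 (SE 0.12, adjusted p = 0.0414, edgeR), which is inside the bound of 0.5 set on the fold. GC content and length offsets gave −0.29 (adjusted p = 0.0664), and with the replicate block the adjusted p was 0.115. It ran from 0.00895 to 0.168 over the fits without 1 library, below 0.05 only without ASO_LINC#3 replicate 3. For 38.3% of all genes tested the change was larger.

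*GAS5*, named for its rise in cells that stop growing and the host of *SNORD78*, stood at 164, 136 and 131 CPM in ASO_CTRL and at 211, 239.6 and 151 CPM in ASO_LINC#3. Replicates 1 and 2 of ASO_LINC#3 lay above all control libraries, and replicate 3 lay below ASO_CTRL replicate 1. Means were 143 ± 18.0 CPM and 200.4 ± 45.2 CPM (SD, n = 3 each), with a log2 fold change of 0.49 (SE 0.18, 95% interval 0.10 to 0.87) and an adjusted p of 0.0795 by edgeR's quasi-likelihood test. Without ASO_LINC#3 replicate 3 it passed the threshold, at a log2 fold change of 0.65 with an adjusted p of 0.00225, as did 17.2% of all genes tested there. With each library left out in turn the adjusted p ran from 0.00225 to 0.282.

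*ZFAS1*, antisense to the start of *ZNFX1* and the host with the most reads, stood at 670.1, 473 and 578 CPM in ASO_CTRL and at 608, 591 and 607 CPM in ASO_LINC#3. All 3 ASO_LINC#3 libraries lay within the control range. The means of 574 ± 98.6 CPM and 602 ± 9.37 CPM (SD, n = 3 each) gave a log2 fold change of 0.07 (SE 0.14, 95% interval −0.24 to 0.38, adjusted p = 0.772, edgeR). Without ASO_CTRL replicate 2 it was −0.04, on the other side of 0.

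*SNHG15* stood at 96.3, 98.6 and 99.0 CPM in ASO_CTRL and at 115, 97.9 and 116 CPM in ASO_LINC#3. Its control libraries were the closest of any of the 9 RNAs, with the highest 1.03-fold above the lowest, and ASO_LINC#3 replicate 2 lay among them. The log2 fold change was 0.16 (SE 0.13, 95% interval −0.12 to 0.44, adjusted p = 0.413, edgeR).

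*SNHG1*, which hosts a series of C/D snoRNAs, had the fewest reads of the 9, at 36.1, 45.1 and 37.3 CPM in ASO_CTRL and at 35.3, 33.7 and 40.9 CPM in ASO_LINC#3. The groups overlapped. Its log2 fold change was −0.11 (SE 0.15, 95% interval −0.44 to 0.22, adjusted p = 0.656, edgeR), and ran from −0.19 without ASO_LINC#3 replicate 3 to −0.001 without ASO_CTRL replicate 2.

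**Figure D2:**
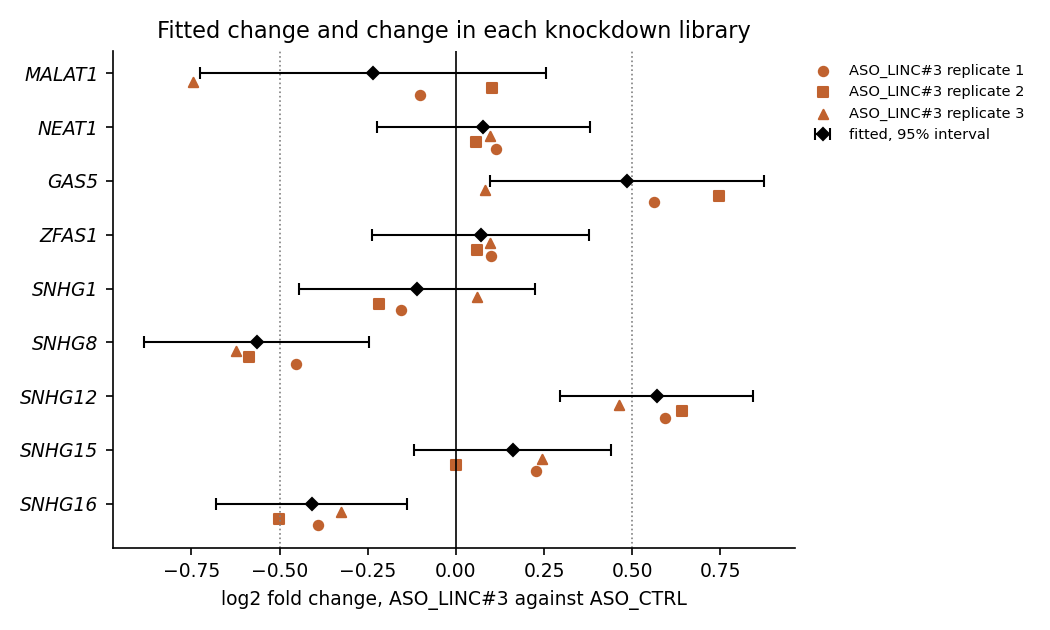
Fitted log2 fold change of ASO_LINC#3 against ASO_CTRL for each of the 9 RNAs, with its 95% interval as a bar and the change of each ASO_LINC#3 library against the control mean as points; dotted lines mark the bound of 0.5 on the fold in both directions. The intervals of *SNHG12* and *GAS5* lie above 0 and those of *SNHG8* and *SNHG16* below it, while those of the other 5 cross 0, and for *MALAT1* and *GAS5* the libraries are spread widely.

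Reads per kilobase of transcript allow levels to be set beside each other between the RNAs, although reads primed from poly(A) do not cover a transcript evenly. In ASO_CTRL, *MALAT1* held 182 CPM per kb of its exons and *NEAT1* 19.8 CPM per kb, counted over all annotated exons. For *NEAT1* that length is 22.8 kb, set by its long form, so the value would be higher over the short polyadenylated form. Lengths come from the GENCODE annotation, which need not be the one used for counting. On the same scale *ZFAS1* held 69, *SNHG16* 35.3, *GAS5* 29.1, *SNHG15* 24.8, *SNHG8* 16.6, *SNHG12* 16.6 and *SNHG1* 9.93 CPM per kb. With the length of the canonical transcript alone, *SNHG16* came to 410 and *GAS5* to 187 CPM per kb, both above *MALAT1*, so the order of these levels depends on which annotated transcript is taken.

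The 7 hosts together took shares of the reads on genes that overlapped between the groups. The shares of *SNHG8*, *SNHG12* and *SNHG16* among the reads on the 7 did not overlap. The share was 0.134%, 0.112% and 0.123% in ASO_CTRL and 0.132%, 0.130% and 0.125% in ASO_LINC#3, and the ASO_LINC#3 libraries all lay inside the control range. Of the reads on the 7 hosts, *ZFAS1* took a mean of 46.1% in ASO_CTRL and 47.0% in ASO_LINC#3. *SNHG16* took between 15.8% and 17.2% in ASO_CTRL and between 11.2% and 13.0% in ASO_LINC#3, and *SNHG8* took between 8.43% and 9.09% and between 5.64% and 6.08%. *SNHG12* took between 5.08% and 6.19% in ASO_CTRL and between 7.86% and 8.58% in ASO_LINC#3. For *GAS5* the share was between 10.6% and 12.3% in ASO_CTRL and 16.1%, 18.6% and 12.1% in the ASO_LINC#3 libraries. Because the shares add up to a whole, they are not independent of each other. The shares of *SNHG8*, *SNHG12* and *SNHG16* restate the levels by which these 3 of the 7 hosts were picked out above. They are no further evidence, and 36.1% of all genes tested had levels that did not overlap between the groups.

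Set against each other inside a library, a pair chosen after its values were seen, *SNHG12* gave 0.559, 0.734 and 0.666 reads for each *SNHG8* read in ASO_CTRL and 1.34, 1.52 and 1.38 in ASO_LINC#3. Thus *SNHG8* was the more abundant of the pair in every control library and *SNHG12* in every ASO_LINC#3 library, as counted per gene and not per length.

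**Figure D3:**
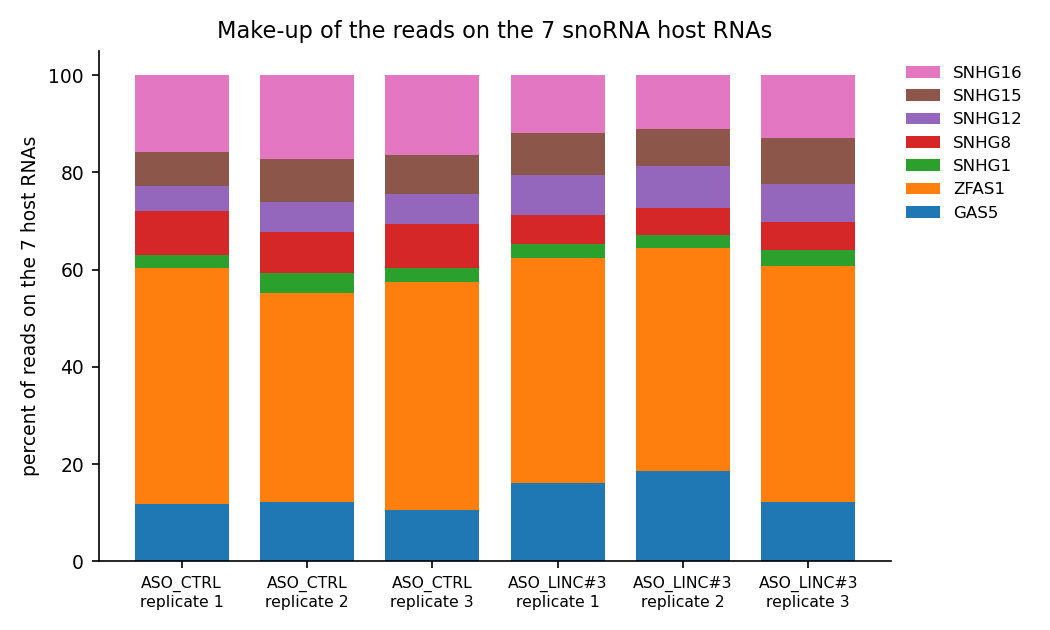
Share of each of the 7 host RNAs in the reads on all 7, in percent, as 1 stacked bar for each library. *ZFAS1* takes close to the same share in all 6 bars, while the parts of *SNHG8* and *SNHG16* are narrower and that of *SNHG12* is wider in the 3 ASO_LINC#3 bars.

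Several of these genes share a start region or a stretch of the genome with a gene on the opposite strand, and no strand setting for the counting is given in the sources used here, so reads of overlapping partners may not be separated. Of the 7 annotated partners that were tested, 0 passed the threshold by edgeR's quasi-likelihood test. *SLC3A2*, the heavy chain of amino acid transporters, starts 82 bases from *SNHG1* and reads away from it. Its level was 178, 188 and 158 CPM in ASO_CTRL and 224, 221 and 249.7 CPM in ASO_LINC#3, with no overlap between the groups and a log2 fold change of 0.40 (adjusted p = 0.0479, edgeR), beside −0.11 for *SNHG1*. *ZNFX1*, which starts 216 bases from *ZFAS1*, had a log2 fold change of 0.05 (adjusted p = 0.833), and *ZBTB37*, which starts 93 bases from *GAS5*, had one of 0.23 (adjusted p = 0.501).

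*GAS5-AS1*, inside *GAS5* on the other strand, was at 1.48, 1.89 and 1.05 CPM in ASO_CTRL and at 2.94, 0.856 and 8.40 CPM in ASO_LINC#3. It was thus highest in ASO_LINC#3 replicate 3, the library in which *GAS5* was lowest of its group, but its level was a small part of that of *GAS5* in all 6 libraries. The log2 fold change was −0.19 for *TRNAU1AP* over *SNHG12* (adjusted p = 0.374) and 0.79 for *PRSS12* over *SNHG8* (adjusted p = 0.115, edgeR). *PRSS12* was at most 2.98 CPM in any library.

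Of the 12 other noncoding snoRNA hosts tested, 0 passed the threshold by edgeR, DESeq2 or limma-voom, and 2 had an unadjusted p below 0.05. Over all genes tested, 32.4% were below it. The median log2 fold change of the 12 hosts was −0.14, with 5 above 0 and 7 below. *SNHG18* went from 47.9 ± 6.32 CPM to 32.1 ± 4.27 CPM (SD, n = 3 each), with no overlap, a log2 fold change of −0.58 and an adjusted p of 0.0301. *DANCR* had a log2 fold change of −0.48 (adjusted p = 0.117) and *SNHG3* one of −0.33 (adjusted p = 0.210, edgeR). Without ASO_LINC#3 replicate 3, 1 of the 12 passed, where 17.2% of all genes did.

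Protein-coding genes also carry snoRNAs in their introns. Among 24 ribosomal protein hosts, which encode parts of the same ribosome that the snoRNAs help to modify, 1 passed the threshold, *RPS13*, which fell from 696 ± 168 CPM to 315 ± 24.2 CPM (SD, n = 3 each; log2 fold change −1.14, adjusted p = 0.00133, edgeR). The median of the 24 was −0.11, and 1 of 24 stands beside 7.54% of all genes tested. Without ASO_LINC#3 replicate 3 the count was 3 of 24 (17.2% of all genes). *RPS20* was 1061 ± 70.9 CPM in ASO_CTRL and 1531 ± 331 CPM in ASO_LINC#3 (log2 fold change 0.53, adjusted p = 0.0409), and *RPLP2* was 2223 ± 60.4 CPM and 1803 ± 94.8 CPM (log2 fold change −0.30, adjusted p = 0.0745). Ribosomal protein genes have many processed pseudogenes, so their counts depend on how shared reads were assigned.

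Among 15 other protein-coding hosts 1 passed, *HSPA8*, the constitutive HSP70 chaperone, which fell from 1853 ± 261 CPM to 806 ± 89.9 CPM (SD, n = 3 each; log2 fold change −1.20, adjusted p = 0.00034, edgeR). Their median was −0.01, and 1 of 15 stands beside 7.54% of all genes tested. Without ASO_LINC#3 replicate 3 the count was 2 of 15 (17.2% of all genes). *SLC25A3*, the mitochondrial phosphate carrier, had a log2 fold change of −0.32 (adjusted p = 0.0875), and *TAF1D*, a subunit of the factor that recruits RNA polymerase I, had one of 0.61 (adjusted p = 0.107). *TAF1D*, like *GAS5*, was lower in ASO_LINC#3 replicate 3, at 145 CPM, than in replicates 1 and 2, at 265 and 329 CPM.

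The 8 proteins that form the core of snoRNPs had a median log2 fold change of −0.06, and 0 passed by edgeR, DESeq2 or limma-voom. At an unadjusted p below 0.05 there were 3 of the 8, beside 32.4% of all genes tested. *GAR1*, an H/ACA core protein, stood at 96.9 ± 10.9 CPM in ASO_CTRL and 70.7 ± 6.38 CPM in ASO_LINC#3 (SD, n = 3 each; log2 fold change −0.46, adjusted p = 0.0444). *FBL*, the methyltransferase of C/D snoRNPs, had a log2 fold change of −0.33 (adjusted p = 0.083) and *NOP58*, its partner, one of 0.43 (adjusted p = 0.115, edgeR). Without ASO_LINC#3 replicate 3, 1 of the 8 passed, beside 17.2% of all genes.

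Factors of NMD, the decay route of many spliced hosts, gave 10 log2 fold changes above 0 and 3 below among the 13 tested. Their median was 0.16, beside −0.003 over all genes tested, and whether the factors moved together was not tested. Of these, 0 passed by edgeR, DESeq2 or limma-voom, 2 had an unadjusted p below 0.05, and in none of the 13 were the groups apart. Over all genes tested, 32.4% had an unadjusted p below 0.05 and 36.1% had groups apart. *UPF2*, which links the exon junction complex to the helicase *UPF1*, had a log2 fold change of 0.47 (adjusted p = 0.0949). For the endonuclease *SMG6* it was 0.44 (adjusted p = 0.111) and for *UPF3B* 0.38 (adjusted p = 0.193, edgeR). Without ASO_LINC#3 replicate 3, 2 of the 13 passed, near the 17.2% of all genes that did.

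For the bodies built on or around the nuclear RNAs, 10 of 12 paraspeckle proteins had a log2 fold change below 0. Their median was −0.24, beside −0.003 over all genes tested, and whether they moved together was not tested. Of the 12, 0 passed by edgeR, DESeq2 or limma-voom, and 4 had an unadjusted p below 0.05. Those 4 of 12 are near the 32.4% of all genes tested. In 7 of the 12 the groups did not overlap, beside 36.1% of all genes tested, and the same held for 4 of the 11 nuclear speckle proteins, 3 of the 8 snoRNP proteins, 7 of the 24 ribosomal protein hosts, 4 of the 15 other protein-coding hosts, 2 of the 12 other noncoding hosts and 6 of the 18 other long noncoding RNAs. *SFPQ*, which *NEAT1* binds in forming the paraspeckle, stood at 272 ± 12.2 CPM in ASO_CTRL and 205 ± 10.3 CPM in ASO_LINC#3 (SD, n = 3 each; log2 fold change −0.41, adjusted p = 0.0346). The log2 fold change was −0.55 for *PSPC1* (adjusted p = 0.0792) and −0.34 for *CPSF6* (adjusted p = 0.1, edgeR), beside 0.08 for *NEAT1*.

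The 11 proteins of nuclear speckles had a median of −0.04, and 0 passed by edgeR, DESeq2 or limma-voom. At an unadjusted p below 0.05 there were 2 of the 11, beside 32.4% of all genes tested. *SRSF2*, a splicing factor, stood at 350 ± 3.76 CPM in ASO_CTRL and 253 ± 21.7 CPM in ASO_LINC#3 (SD, n = 3 each; log2 fold change −0.47, adjusted p = 0.0219). *SRSF3* had a log2 fold change of −0.26 (adjusted p = 0.147) and *SRSF1* one of −0.31 (adjusted p = 0.242, edgeR).

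Of 18 other well-known long noncoding RNAs tested, 2 passed, both higher, beside 7.54% of all genes tested (4.91% on the higher side). *MEG3*, an imprinted RNA, rose from 13.8 ± 0.583 CPM to 32.2 ± 4.71 CPM (SD, n = 3 each; log2 fold change 1.21, adjusted p = 0.000905), and *TERC*, the template RNA of telomerase, rose from 2.52 ± 0.874 CPM to 7.15 ± 0.874 CPM (log2 fold change 1.52, adjusted p = 0.00607, edgeR). The median of the 18 was 0.35. Leaving out ASO_CTRL replicate 3 ended both calls (0 of 18), where 2.42% of all genes passed. The count was 1 without ASO_CTRL replicate 2 (3.32% of all genes), without ASO_LINC#3 replicate 1 (2.87%) or without ASO_LINC#3 replicate 2 (3.5%). It was also 1 with the replicate block (4.47%), and 3 without ASO_LINC#3 replicate 3 (17.2%). *LINC00152*, also called *CYTOR*, had a log2 fold change of 0.44 (adjusted p = 0.034). Mature *TERC* lacks a poly(A) tail, and its reads in these oligo-dT primed libraries were few.

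**Figure D4:**
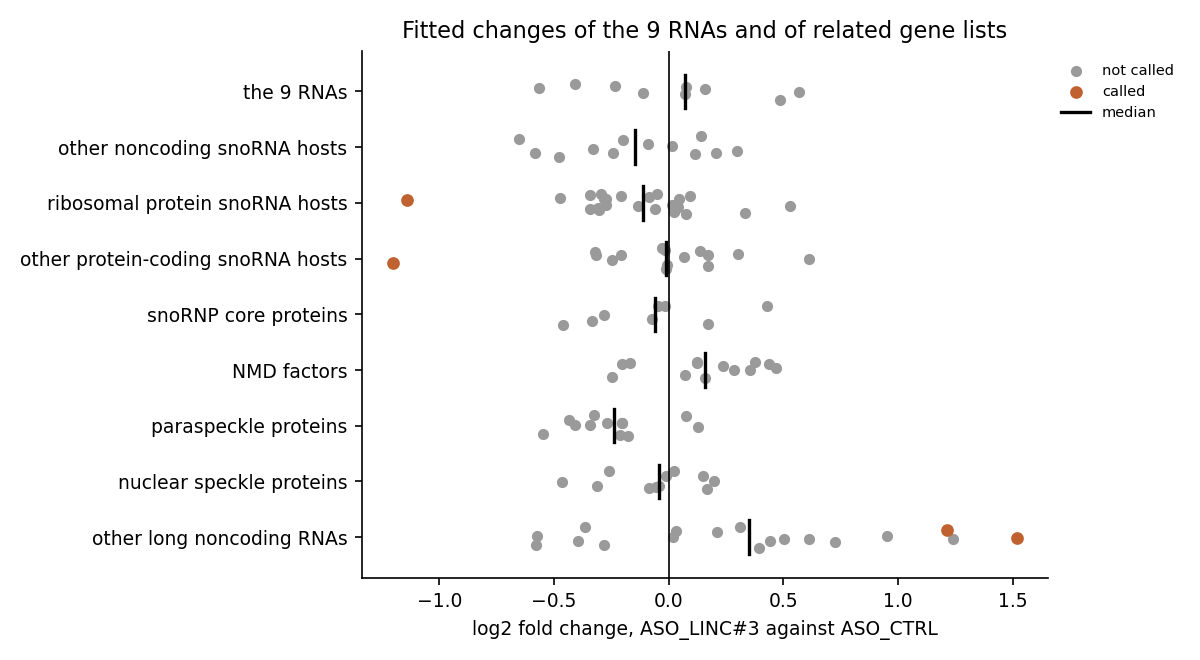
Fitted log2 fold change of ASO_LINC#3 against ASO_CTRL for the 9 RNAs and for the genes of 8 related lists, 1 point for each gene, with the median of each list as a vertical line and genes past the threshold in orange. None of the 9 RNAs is past it, and the 4 orange points are *RPS13* and *HSPA8* on the lower side and *MEG3* and *TERC* on the higher side.

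Among the genes whose pattern over the 6 libraries was most like that of *MALAT1*, by the root-mean-square difference of mean-centred log2 CPM, were *HSPE1* (0.0506) and *UFSP2* (0.0718), of 10212 genes compared. For *NEAT1* they were *ATXN2* (0.0413), *TGFBI* (0.0506) and the pseudogene *HMGB1P1* (0.0517). The libraries share their depth and treatment, so likeness over 6 points is a description.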

How the data were processed

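The table deposited by the authors holds raw read counts per gene name for 6 libraries, from oligo-dT primed cDNA aligned to hg19 with STAR per the methods and labels. The counter, annotation and strand setting are not given in the sources used here. Rows for reads assigned to no gene held 24.8% to 28.1% of the reads and were left out. All genes were fitted with edgeR 4.0.16 (R 4.3.3, filterByExpr, TMM, quasi-likelihood test, Benjamini-Hochberg adjustment), with no block. DESeq2 1.42.0 and limma 3.58.1 (voom) were alternatives. CPM values use TMM-scaled library sizes. The fit was tested on simulated data. Named were the 9 RNAs, in each list the genes past the threshold and, where those were fewer than 3, the 3 with the smallest p, annotated overlapping genes or genes starting near a start, and for *MALAT1* and *NEAT1* the 3 genes most alike among those with a mean of at least 50 counts. Some genes that this rule names are not reported here. No host passed the threshold, so no mean host profile was compared. The RNAs and lists were chosen with earlier results of these data known. Positions and snoRNA sequences are from GRCh37 with GENCODE annotation, and start windows from RefSeq, which matched 7 of the 9. Intervals and p-values cover the spread between libraries only.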

Additional observations from a re-analysis of the deposited data

How the results depend on the processing

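Of 171 values of the 9 RNAs under alternative settings, 160 kept their direction and their side of the threshold, 9 newly passed it and 2 changed sign, *ZFAS1* (−0.044 without ASO_CTRL replicate 2) and *NEAT1* (−0.016 without ASO_CTRL replicate 3). Of the 9 RNAs, 1 passed with DESeq2, limma-voom or library size alone, in each case *SNHG12* (log2 fold change 0.572, 0.569 and 0.586). Of all genes tested in these fits, 8.86%, 8.27% and 7.7% passed. At an adjusted p below 0.05, 2 passed (*SNHG8*, −0.565, and *SNHG12*, 0.569), with 2465 genes in all (16.8%) and 7 genes of the related lists. At the threshold used it was 1106 genes (7.54%) and 4 list genes. A test against the bound itself (glmTreat) left 384 genes and 2 list genes. With GC content and length offsets 1735 genes (11.8%) passed, and of the 9 it was 1, *SNHG8* (−0.675). Same-numbered libraries deviated together by correlations of 0.059, −0.149 and −0.18. With 3 libraries in each group these values cannot show whether libraries of the same number were made together. Not every library correlated best with its own number. With the replicate block 656 genes (4.47%) and 0 of the 9 RNAs passed. With the block and the GC and length offsets 1 of the 9 passed, *SNHG8* (−0.664), beside 8.25% of all genes. With each library left out, genes called ran from 359 (2.42%) to 2616 (17.2%), the highest without ASO_LINC#3 replicate 3. List genes called ran from 2 to 12 and the 9 RNAs from 0 to 2, namely *GAS5* and *SNHG12* without ASO_LINC#3 replicate 3. Log2 fold changes then ran from 0.339 to 0.651 for *GAS5*, 0.532 to 0.616 for *SNHG12*, −0.664 to −0.459 for *SNHG8*, −0.415 to −0.026 for *MALAT1*, −0.188 to −0.001 for *SNHG1*, −0.044 to 0.198 for *ZFAS1* and −0.016 to 0.22 for *NEAT1*. The cause of these shifts was not tested. Scaling moved the median of all genes by little, to between −0.023 and 0.014.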

Other observations

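A pair of the other snoRNA hosts, chosen after their values were seen, varied more between libraries of 1 group than between the groups. *SNHG5* stood at 320, 86.0 and 174 CPM in ASO_CTRL and at 131, 158 and 77.8 CPM in ASO_LINC#3, and its highest control library exceeded its lowest 3.72-fold. *SNHG6* stood at 404, 191 and 320 CPM in ASO_CTRL and at 306, 342 and 212 CPM in ASO_LINC#3, with the highest control library 2.12-fold above the lowest. In both RNAs ASO_CTRL replicate 2 was the lowest control library, and it was also the lowest control library for *MALAT1*, *ZFAS1*, *SNHG8*, *SNHG12* and *SNHG16*, whereas *SNHG1* was highest there.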
